A study of Mus musculus with 18 samples.

Results

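Respiratory complex I was followed through all genes whose platform symbol starts with Nduf, which gave 46 genes with 1 probe set each, out of 22206 probe sets on the array and 19572 that carry 1 gene symbol. By role they comprised 6 catalytic core subunits encoded in the nucleus, 9 accessory subunits of the matrix arm, 20 accessory subunits of the membrane arm, the acyl carrier protein Ndufab1, the pair Ndufa4 and Ndufa4l2, and 8 assembly factors. The core subunits made inside the mitochondrion, whose symbols start otherwise, were not analysed here. The study sorted Treg (regulatory T cells), CD8+ T cells and conventional CD4+ T cells (CD4+ Tconv) from the spleens of Foxp3 YFP/cre mice, which carry a fluorescent reporter and a recombinase in the Foxp3 gene. IL2 at 10 ng/ml and small extracellular vesicles (sEVs) were present in every culture over 24 h. HCME-sEVs were taken from spleens of healthy controls, and LME-sEVs from leukemic spleens of TCL1 mice, in which a disease like chronic lymphocytic leukemia develops. The labels give 50 ug/ml of sEVs whereas the methods set amounts by what the respective spleen held, and whether doses were the same is not settled by them. Each subset and treatment had 3 Clariom S arrays, 18 in all, and no array of cells without sEVs was part of the comparison. The sources used here do not say that the arrays of a group came from separate animals or cultures, so the p-values speak of the spread among these samples alone, and that spread may be technical.

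Complex I is the entry point of the respiratory chain in the inner mitochondrial membrane. Its matrix arm takes electrons from NADH through a flavin and a row of iron-sulfur clusters to ubiquinone, while its membrane arm pumps protons and is framed by many small accessory subunits, and a separate set of assembly factors joins the modules without staying in the finished enzyme. Naive T cells rely largely on oxidative metabolism, activated effector T cells raise both glycolysis and respiration, and Treg are known for a high use of the respiratory chain.

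Cd4 was above background in every subset, and Cd8a only in CD8+ T cells, while Cd8b1 was above it in all 3 subsets. Ikzf2, Il2ra and Ctla4 were above background in Treg and below it in both other subsets, and Foxp3 had no named probe set. Background was the 95th percentile of 1429 probe sets for olfactory, vomeronasal and trace amine receptors, genes with no known role in lymphocytes, and stood at 8.80 in CD4+ Tconv, 8.08 in CD8+ T cells and 7.62 in Treg on the log2 signal scale. Correlations between arrays of 1 group ran from 0.929 to 0.985, with the lowest in the HCME group of Treg. Of the 46 members, 37 had a group mean above background in CD4+ Tconv, 40 in CD8+ T cells and 39 in Treg. By the same rule, B cell markers (5 measured) had 0 above background in CD4+ Tconv, 0 in CD8+ T cells and 2 in Treg. In the same order of subsets, 2, 2 and 3 of 3 platelet markers were above it, and 1, 0 and 2 of 2 neutrophil markers. The counts were 0, 1 and 1 of 3 NK cell markers, 1, 0 and 0 of 4 macrophage markers, and 0, 0 and 1 of 1 erythroid marker.

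In CD4+ Tconv, 3 members passed the study's thresholds (log2 fold change beyond 1 in either direction with an adjusted p below 0.05), and all of them fell after LME-sEVs. Ndufv3, a small subunit at the NADH-binding tip of the matrix arm, fell by 1.74 on the log2 scale. Ndufb7 and Ndufb10, subunits on the intermembrane face of the membrane arm, fell by 1.45 and 1.20. No member was called higher, and 0.937% of all probe sets were called lower and 0.0721% higher. RNA was measured per sample, so fewer cells making a transcript and less of it per cell cannot be told apart here or in any later result.

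The promoters of the 3 called members and of Ndufs8, the core subunit with the largest difference in Treg, are shown because they belong to the genes on which the results below turn. The sequences are RefSeq windows of GRCm38.p6 of 300 bases around the gene start, most of them before it, at chr17:31519865-31520164 (plus strand) for Ndufv3, chr8:83566508-83566807 (plus strand) for Ndufb7, chr17:24724374-24724673 (minus strand) for Ndufb10 and chr19:3912725-3913024 (minus strand) for Ndufs8. Capitals mark matches to any of 4 short motifs on either strand, and these are TGCGCA, the core of the nuclear respiratory factor NRF1 site, CCGGAAG of ETS factors, AAGATGG of YY1, and CCAAT.
Ndufv3: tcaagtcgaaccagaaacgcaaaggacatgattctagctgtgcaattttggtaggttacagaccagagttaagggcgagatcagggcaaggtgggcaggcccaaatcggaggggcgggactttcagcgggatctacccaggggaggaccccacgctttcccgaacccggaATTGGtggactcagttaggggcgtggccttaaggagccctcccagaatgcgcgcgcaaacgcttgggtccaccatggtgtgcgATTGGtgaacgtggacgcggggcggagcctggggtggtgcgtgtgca
Ndufb7: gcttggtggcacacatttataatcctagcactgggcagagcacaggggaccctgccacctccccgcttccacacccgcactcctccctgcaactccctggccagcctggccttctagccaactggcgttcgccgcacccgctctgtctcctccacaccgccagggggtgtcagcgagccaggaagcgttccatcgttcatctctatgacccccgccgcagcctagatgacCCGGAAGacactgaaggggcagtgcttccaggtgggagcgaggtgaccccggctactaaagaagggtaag
Ndufb10: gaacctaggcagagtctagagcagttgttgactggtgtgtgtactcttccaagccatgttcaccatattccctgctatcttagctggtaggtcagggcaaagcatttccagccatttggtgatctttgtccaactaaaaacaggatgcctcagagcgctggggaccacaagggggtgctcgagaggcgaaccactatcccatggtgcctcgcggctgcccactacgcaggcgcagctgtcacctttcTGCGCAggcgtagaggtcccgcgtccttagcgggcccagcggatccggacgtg
Ndufs8: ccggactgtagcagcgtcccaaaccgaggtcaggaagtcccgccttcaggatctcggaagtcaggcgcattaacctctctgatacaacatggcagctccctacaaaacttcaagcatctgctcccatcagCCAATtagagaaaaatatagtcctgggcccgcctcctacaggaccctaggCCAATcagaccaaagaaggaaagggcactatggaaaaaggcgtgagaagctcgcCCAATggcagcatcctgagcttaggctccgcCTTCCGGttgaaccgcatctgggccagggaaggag

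Ndufv3 had 2 matches to CCAAT read on the other strand, Ndufb7 had 1 to the ETS letters, Ndufb10 had 1 to the NRF1 core, and Ndufs8 had 3 to CCAAT and 1 to the ETS letters. The 3 called members thus shared no motif among those searched. Over the 41 members with a promoter in the table, TGCGCA was found in 26.8%, against 8.79% of all 27025 genes. AAGATGG was found in 19.5% of these members against 7.28%, CCGGAAG in 14.6% against 9.93% and CCAAT in 34.1% against 41.1%. None of the 4 motifs contains another, and a match describes the sequence only.

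On the CD4+ Tconv arrays, Ndufv3 had a log2 signal of 10.24, 10.36 and 9.39 with HCME-sEVs and of 7.78, 8.53 and 8.46 with LME-sEVs (means 10.0 ± 0.53 and 8.26 ± 0.41, SD, n = 3 each; SE of the difference 0.29, limma, adjusted p = 0.0372). Ndufb7 read 11.96, 12.46 and 11.59 against 10.65, 10.37 and 10.65 (12.003 ± 0.44 and 10.56 ± 0.16; SE 0.24, adjusted p = 0.0358, limma). Ndufb10 read 10.61, 11.03 and 10.28 against 9.24, 9.68 and 9.40 (10.64 ± 0.38 and 9.44 ± 0.22; SE 0.24, adjusted p = 0.0440, limma). In all 3 genes every LME array lay below every HCME array, and the LME mean of Ndufv3 was below the receptor background of the subset. Of the 46 members, 13 did not overlap between the groups with LME lower (28.3%) and 1 with LME higher, where 11.8% and 11.6% of all probe sets did so.

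These calls depended on processing. All 3 were lost after quantile normalization, cyclic loess, centring of the arrays, with the receptor signal as covariate, with limma's trend and robust options, in a fit of all 18 arrays and by the methods' t-test, as well as with a replicate block (lowest adjusted p of a member = 0.0531). Leaving out HCME array 1 or 2, or LME array 1 or 3, also left no call. Without LME array 2 the count was 5, with Ndufa1 (-1.24) and the near copy Ndufb4b (-1.23) added.

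**Figure D1:**
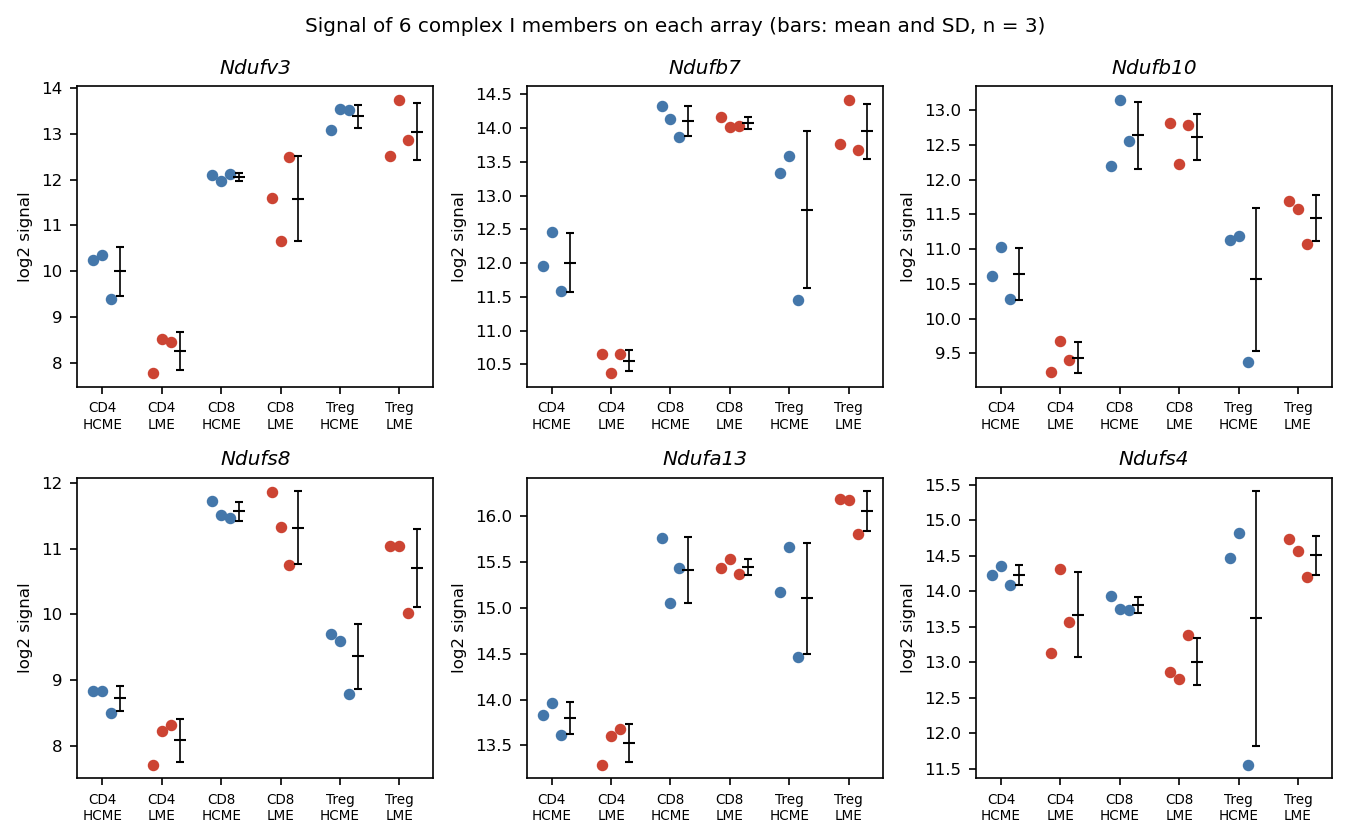
Log2 signal of 6 complex I members (Ndufv3, Ndufb7, Ndufb10, Ndufs8, Ndufa13 and Ndufs4) on each of the 18 arrays, with HCME arrays in blue and LME arrays in red and the mean and SD (n = 3) beside each group. In CD4+ Tconv the LME points of Ndufv3, Ndufb7, Ndufb10 and Ndufs8 lie below all HCME points, and in Treg HCME array 3 lies lowest of the 6 arrays for Ndufb7, Ndufb10, Ndufs8, Ndufa13 and Ndufs4.

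Most complex I members had a negative log2 fold change in CD4+ Tconv, as did most other bright probe sets. Their median log2 fold change was -0.41, with 40 of 46 below 0 (87.0%), while the median of all probe sets was 0.07. The count below 0 was 28 after quantile normalization (median -0.17), 27 after cyclic loess (median -0.12) and 33 with arrays centred above background, where the median was -0.12 and that of all probe sets 0.36. The brightest 10% of all probe sets, which held 28 of the members, also had a median of -0.41, and 4.05% of them were called lower. When each member was set against the 200 other probe sets nearest to it in mean signal, 27 lay below the median of those neighbours and 19 above, and the median difference was -0.15. This difference was 0.01 without LME array 1 and -0.0025 without LME array 3. Of the neighbours, 71.0% were below 0 and 30.5% did not overlap with LME lower, against 87.0% and 28.3% of the members. The share called lower was 6.52% of members and 2.87% of neighbours on average over members.

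Signal range moved with the treatment in this subset. The mean of the receptor probe sets was 6.69 to 6.87 on the HCME arrays and 7.01 to 7.20 on the LME arrays, and the upper decile of all signals was 10.32 to 10.51 against 10.05 to 10.21, so both separated the groups. The mean of the T-cell markers Ptprc, Cd3e and Cd3d likewise ran from 15.28 to 15.55 with HCME-sEVs and from 14.24 to 14.83 with LME-sEVs, with 0 of these markers called. Macrophage markers (4 measured, 1 above background) were at 7.31 to 7.46 against 7.62 to 7.85. The mean of Cd8a and Cd8b1 (1 of 2 above background) was 8.53 to 8.74 against 8.32 to 8.44, also with groups apart. The part of these shifts in the members' values was not tested. With the receptor mean as covariate the members' median turned to 0.27, with 17 members below 0, and since this covariate separates the groups, background and treatment cannot be told apart there.

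**Figure D2:**
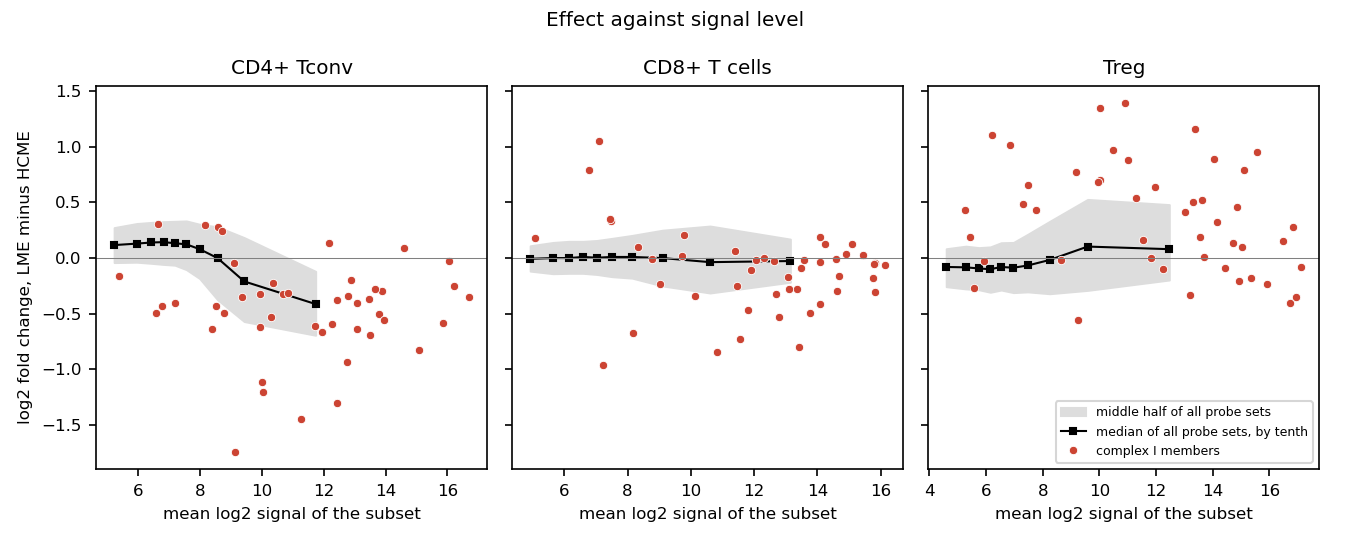
Log2 fold change (LME minus HCME) against the mean log2 signal of the subset, with complex I members in red, the median of all probe sets in each of 10 bins of signal as black squares, and their interquartile range in grey. In CD4+ Tconv the black squares go from 0.12 in the dimmest bin to -0.41 in the brightest, which holds 28 members, and Ndufv3, Ndufb7 and Ndufb10 lie under them.

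Among the catalytic core subunits in CD4+ Tconv, 5 of 6 were below 0 and none was called, with a median of -0.54. Ndufs8, which holds iron-sulfur clusters near the ubiquinone site, read 8.83, 8.83 and 8.50 with HCME-sEVs and 7.71, 8.23 and 8.31 with LME-sEVs (log2 fold change -0.64, SE 0.22, limma, adjusted p = 0.166). Ndufs3, of the ubiquinone-binding module, read 16.21, 16.31 and 15.96 against 15.57, 15.34 and 15.81 (-0.59, SE 0.21, adjusted p = 0.170, limma). The groups did not overlap in either gene, and both group means of Ndufs8 were below background.

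Ndufs7, which carries the last cluster before ubiquinone, read 7.26, 6.64 and 6.65 against 6.40, 6.08 and 6.59 (-0.49, SE 0.24). It was below background on average in both groups, though its groups did not overlap. Ndufv2, an iron-sulfur subunit of the NADH module, read 12.50, 12.65 and 11.68 against 11.09, 12.03 and 11.72 (-0.66, SE 0.31), and HCME array 3 fell among the LME arrays. The other core subunits were also below background, with Ndufs1, the largest iron-sulfur subunit, at 7.25, 7.70 and 7.31 against 6.87, 6.79 and 7.38 (-0.41, SE 0.23). Ndufv1, which binds NADH and the flavin, was the exception in sign at 7.91, 8.27 and 7.93 against 8.49, 8.45 and 8.06 (0.30, SE 0.21). Both overlapped between the groups.

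Several accessory subunits came next to the called ones in CD4+ Tconv. Ndufa10, a kinase-like subunit on the matrix side of the membrane arm, stood at -1.30 (SE 0.38, limma, adjusted p = 0.117) and did not overlap. Ndufa8, another subunit of the intermembrane face, stood at -0.94 (SE 0.22, adjusted p = 0.0696, limma) and did not overlap either. Ndufs5, which shares that location, stood at -0.50 (SE 0.18) with groups apart.

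Over the 20 membrane arm accessory subunits the median was -0.47, with 19 below 0 and 2 called, and over the 9 of the matrix arm it was -0.41, with 8 below 0 and 1 called. Ndufa6, of the matrix arm, and Ndufb4, of the membrane arm, were the members above 0 in these groups, at 0.14 and 0.09. Ndufb4b, a near copy of Ndufb4 whose probes may read the same transcripts, stood at -0.62 (SE 0.41), so values of this pair are uncertain. At 10.22, 10.36 and 10.17 against 8.87, 10.84 and 9.18, its second LME array lay above all HCME arrays.

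Assembly factors had mixed signs in CD4+ Tconv. Of 8 measured, 5 were below 0 and 3 above, with a median of -0.28 and none called. Ndufaf7, a mitochondrial methyltransferase, stood lowest at -1.11 (SE 0.32, limma, adjusted p = 0.109), and its groups overlapped. Ndufaf5, which hydroxylates Ndufs7, stood at -0.50 (SE 0.27), Ndufaf3 at -0.43 (SE 0.23), Ndufaf2, a relative of Ndufa12, at -0.35 (SE 0.23) and Ndufaf4, a partner of Ndufaf3, at -0.22 (SE 0.19). Ndufaf3 and Ndufaf4 did not overlap between the groups. Ndufaf6 (0.31, SE 0.21), Ndufaf1 (0.28, SE 0.29), which acts early in assembly, and Ndufaf8 (0.24, SE 0.26), a partner of Ndufaf5, were above 0. Ndufaf6 was the 1 member whose LME arrays all lay above the HCME arrays, at a level below background. Ndufab1, which also serves fatty acid synthesis in mitochondria, stood at -0.32 (SE 0.22), Ndufa4, now counted as a subunit of complex IV, at -0.30 (SE 0.40) and its hypoxia-induced relative Ndufa4l2 at -0.16 (SE 0.19).

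**Figure D3:**
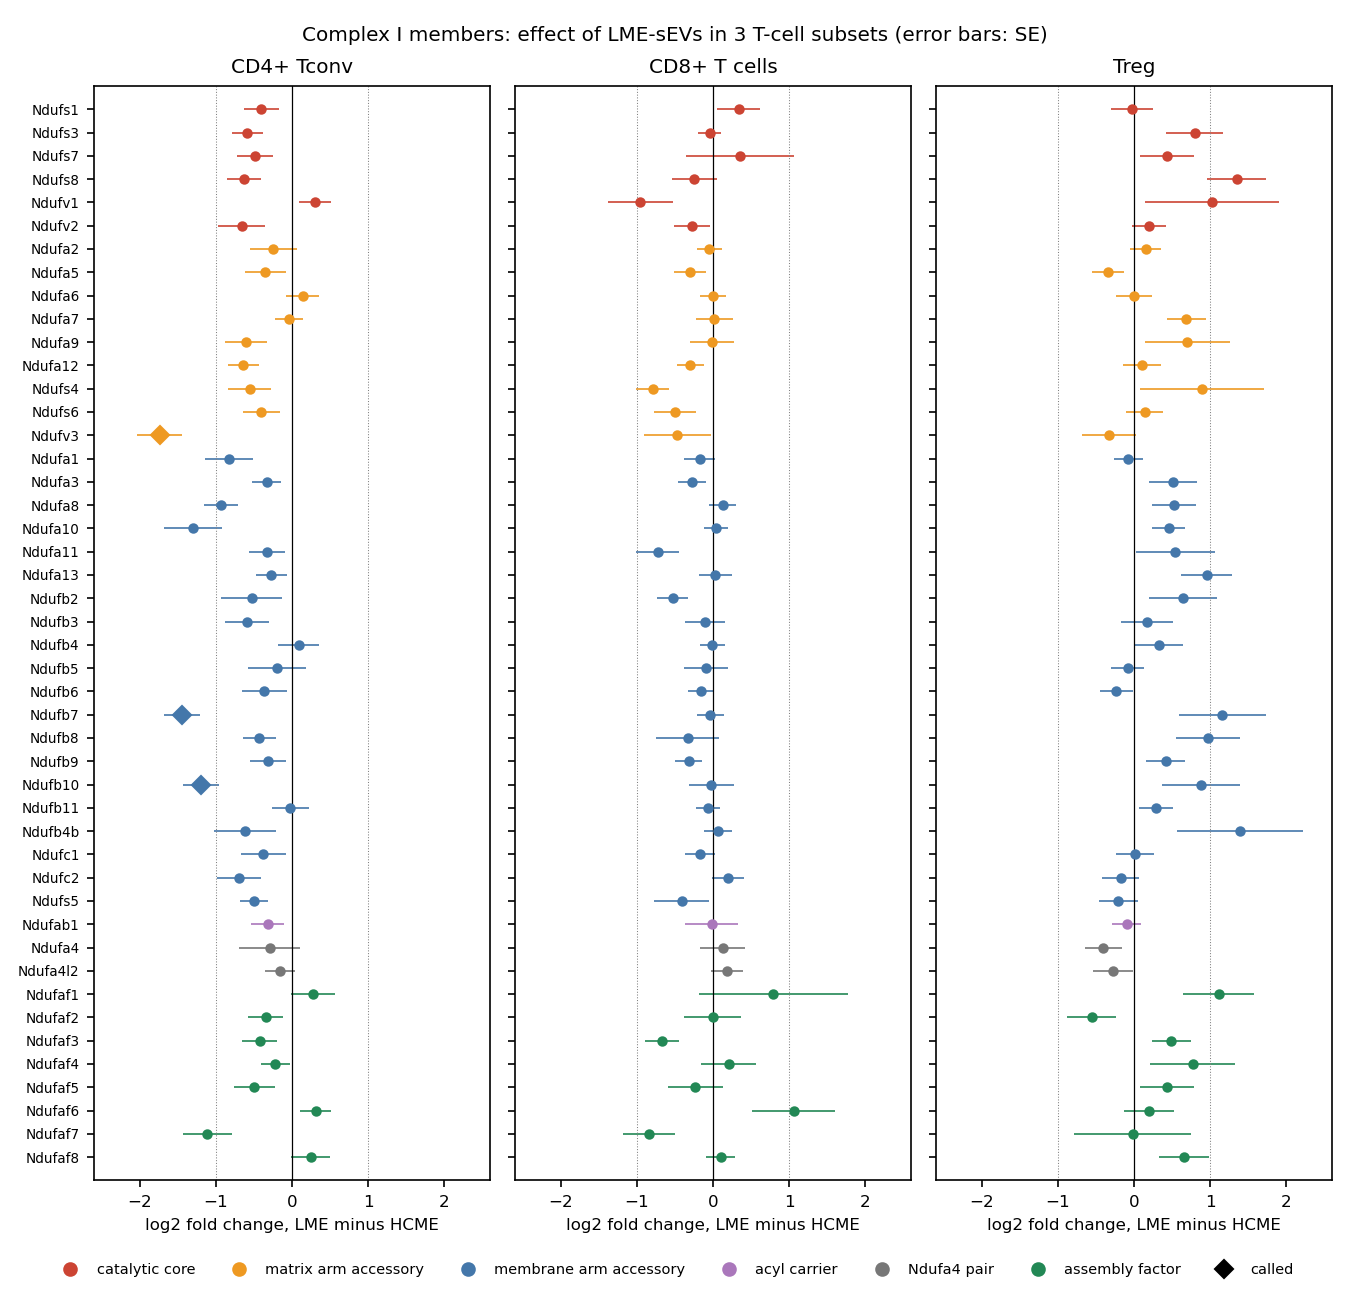
Log2 fold change (LME minus HCME, with SE as error bars, 3 arrays a group) of all 46 members in the 3 subsets, coloured by role, with diamonds for called members and dotted lines at the fold threshold. Most points lie left of 0 in CD4+ Tconv (40 of 46) and right of 0 in Treg (32 of 46). In CD8+ T cells their median is near 0 (-0.06), with 31 of 46 below 0.

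In CD8+ T cells the members' median lay near 0, with more members below 0 than above. The median log2 fold change was -0.06, that of all probe sets -0.00, and 31 members were below 0, 14 above 0 and 1 at 0. The share below 0 was 67.4% of members and 52.6% of the probe sets of similar signal. Of the 40 members above background, 30 were below 0 and 9 above, with a median of -0.10. No member was called by limma, while 0% of all probe sets were called lower and 0% higher. By limma, 5 members and 936 of all 22206 probe sets had an unadjusted p under 0.05. The methods' t-test called 0 members after adjustment, and before it 3 members and 917 of all probe sets were under 0.05. Against probe sets of similar signal the median difference was -0.02. The groups did not overlap in 5 members with LME lower (10.9%) and in 0 with LME higher, where 4.25% and 4.35% of all probe sets did so, and 5.35% and 4.75% of the neighbours.

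The lowest p in CD8+ T cells belonged to Ndufs4, a matrix arm subunit whose loss in mice causes a fatal encephalopathy. It read 13.93, 13.75 and 13.74 with HCME-sEVs and 12.87, 12.77 and 13.39 with LME-sEVs (log2 fold change -0.80, SE 0.21, limma, adjusted p = 0.952). Ndufaf3, which helps assemble the ubiquinone module, read 8.47, 8.21 and 8.88 against 7.63, 7.86 and 8.05 (-0.67, SE 0.23, adjusted p = 0.998, limma). Ndufb2, a membrane arm subunit, read 13.30, 12.94 and 12.89 against 12.34, 12.40 and 12.79 (-0.53, SE 0.21, adjusted p = 0.998, limma). In these genes all LME arrays lay below all HCME arrays, and Ndufa12 (-0.30, SE 0.18) and Ndufb9 (-0.32, SE 0.18) made up the 5.

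The 3 highest log2 fold changes in CD8+ T cells belonged to members below background. Ndufaf6 stood highest at 1.06 (SE 0.54), Ndufaf1 next at 0.79 (SE 0.98) and Ndufs7 at 0.35 (SE 0.71). Ndufaf1 read 6.19, 6.60 and 6.40 against 9.68, 6.04 and 5.84, with only LME array 1 above the HCME arrays. Ndufv1 stood lowest at -0.96 (SE 0.43), also below background, at 7.23, 7.97 and 7.89 against 7.67, 6.29 and 6.26. Ndufaf7 (-0.84, SE 0.34) and Ndufa11, a membrane arm subunit (-0.73, SE 0.28), overlapped between the groups.

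The core subunits with clear signal in CD8+ T cells were close to 0. Ndufs3 read 15.72, 15.82 and 15.97 against 15.78, 15.77 and 15.82 (-0.05, SE 0.15). Ndufv2 read 13.54, 12.84 and 13.39 against 12.93, 13.19 and 12.81 (-0.28, SE 0.23), and Ndufs8 read 11.73, 11.51 and 11.47 against 11.87, 11.34 and 10.76 (-0.25, SE 0.29). Their groups overlapped. Ndufs1 stood at 7.08, 7.58 and 7.30 against 7.18, 7.64 and 8.15 (0.34, SE 0.28) and Ndufs7 at 7.59, 6.23 and 8.03 against 6.68, 9.03 and 7.19. Both were under background and overlapped. The members called in CD4+ Tconv stood at -0.47 (SE 0.44) for Ndufv3, -0.04 (SE 0.18) for Ndufb7 and -0.02 (SE 0.30) for Ndufb10 in CD8+ T cells. The other assembly factors lay between -0.23 for Ndufaf5 and 0.21 for Ndufaf4.

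In Treg most members had a positive log2 fold change and none passed the test. Their median log2 fold change was 0.37, against -0.06 for all probe sets, and 32 of 46 were above 0 (69.6%), where 53.7% of the probe sets of similar signal were. No member was called by limma, where 0% of all probe sets were called lower and 0% higher. By limma, 4 members and 1359 of all 22206 probe sets had an unadjusted p under 0.05. The methods' t-test called 0 members after adjustment, and before it 3 members and 1234 of all probe sets were under 0.05. The groups did not overlap in 9 members with LME higher (19.6%) and in 1, Ndufa5, with LME lower, while 4.72% and 7.53% of all probe sets and 9.0% and 6.24% of the neighbours did so. The median difference from the neighbours was 0.31.

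A single array carried much of this difference. The median deviation of the members from their Treg mean was 0.02, 0.01 and -0.38 on HCME arrays 1, 2 and 3 and 0.19, 0.31 and -0.04 on LME arrays 1, 2 and 3. HCME array 3 stood apart from the others, and its receptor mean was 6.34, against 5.86 to 6.08 on the other Treg arrays. The T-cell marker mean was 14.27 to 15.69 on the HCME arrays and 15.58 to 15.81 on the LME arrays. Treg markers (3 of 3 above background, none called) were at 8.603 to 10.277 against 10.280 to 10.97 and barely did not overlap. Among them Ctla4 had a log2 fold change of 2.44, Il2ra of 0.23 and Ikzf2 of 0.12. NK cell markers (1 of 3 above background) were at 6.69 to 7.23 against 6.18 to 6.31. Neutrophil markers (2 of 2 above background, none called) were at 6.94 to 10.73 against 6.04 to 9.18. B cell markers (2 of 5 above background, none called) were at 6.27 to 6.59 against 6.33 to 7.47, with Pax5 at a log2 fold change of 1.20 and Ebf1 at 1.08 (adjusted p = 0.800 and 0.815, limma), while the defining markers Cd79a, Cd79b and Ms4a1 were below background. The part of these markers in the members' values was not tested. Without HCME array 3 the members' median was 0.15, with 30 of 46 above 0, and the median difference from the neighbours was 0.11.

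**Figure D4:**
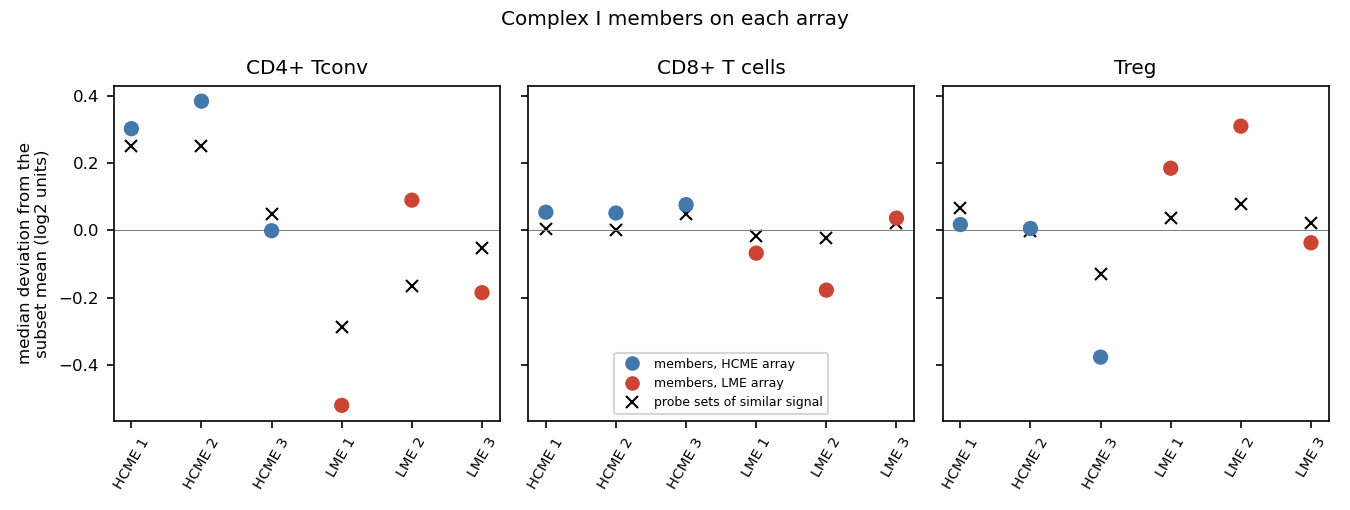
Median deviation of the 46 members from their subset mean (log2 units) on each array, HCME in blue and LME in red, with crosses for probe sets of similar signal. In CD4+ Tconv LME array 1 lies lowest at -0.52, in CD8+ T cells all lie between -0.18 and 0.08, and in Treg HCME array 3 lies lowest at -0.38.

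Ndufs8 had the lowest p in Treg. It read 9.70, 9.59 and 8.79 with HCME-sEVs and 11.05, 11.05 and 10.02 with LME-sEVs (log2 fold change 1.35, SE 0.39, limma, adjusted p = 0.800), and it was at 1.06 without HCME array 3. Ndufa13, a membrane subunit also known as GRIM-19, read 15.18, 15.67 and 14.47 against 16.19, 16.18 and 15.81 (0.95, SE 0.34, adjusted p = 0.800, limma). Ndufa7, of the matrix arm, read 9.93, 9.62 and 9.27 against 10.46, 10.41 and 10.01 (0.69, SE 0.26, adjusted p = 0.800, limma). All LME arrays lay above all HCME arrays in these genes, and the values without HCME array 3 were 0.64 for Ndufa13 and 0.52 for Ndufa7.

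Several other Treg differences changed without that array. Ndufb4b stood at 1.39 (SE 0.83), with 11.36, 11.16 and 8.14 against 11.53, 12.05 and 11.25, and it was at 0.35 without HCME array 3. Ndufs4 stood at 0.89 (SE 0.81) and turned to -0.14 without it. Ndufb7 read 13.34, 13.58 and 11.46 against 13.77, 14.42 and 13.67 (1.16, SE 0.57) and was at 0.49 without it. Its groups did not overlap. Ndufb10 read 11.13, 11.19 and 9.38 against 11.69, 11.58 and 11.07 (0.88, SE 0.51) and was at 0.29 without it, while Ndufb8, a membrane arm subunit, stood at 0.97 (SE 0.42) with the array and at 1.13 without it. Ndufv3, which fell in CD4+ Tconv, read 13.08, 13.53 and 13.51 against 12.52, 13.74 and 12.87 in Treg (-0.33, SE 0.35), with overlapping groups.

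Core subunits in Treg had a median of 0.61, with 5 of 6 above 0. Ndufs3 read 15.20, 15.03 and 13.90 against 15.61, 15.29 and 15.61 (0.79, SE 0.37) with groups apart, and was at 0.39 without HCME array 3. Ndufv2 read 13.60, 13.52 and 13.29 against 13.72, 13.85 and 13.42 (0.19, SE 0.22) and overlapped. Ndufv1, Ndufs7 and Ndufs1 were below background. Ndufv1 read 6.89, 6.82 and 5.31 against 7.21, 9.19 and 5.68 (1.02, SE 0.88), with LME array 2 far above the rest. Ndufs7 read 4.54, 5.13 and 5.49 against 5.62, 5.90 and 4.94 (0.43, SE 0.35) and Ndufs1 read 6.48, 5.61 and 5.77 against 5.87, 6.0 and 5.90 (-0.03, SE 0.28), both with overlap.

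Assembly factors in Treg had a median of 0.46, with 6 of 8 above 0. Ndufaf1 stood highest at 1.11 (SE 0.46), below background, and Ndufaf2 lowest of all members at -0.56 (SE 0.32). Between them lay Ndufaf4 (0.77, SE 0.56), Ndufaf8 (0.66, SE 0.33), Ndufaf3 (0.49, SE 0.25), Ndufaf5 (0.43, SE 0.35), Ndufaf6 (0.19, SE 0.33) and Ndufaf7 (-0.02, SE 0.77). Of the 8, Ndufaf3 had groups apart, at a level below background. At the low end with Ndufaf2 stood Ndufa4 (-0.40, SE 0.24) and Ndufa5, a matrix arm subunit (-0.35, SE 0.21).

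The probe sets with the highest mean signal over all arrays, Ndufa5, Ndufb11, Ndufa2, Ndufa1 and Ndufs3, stood between -0.30 and -0.05 in CD8+ T cells. In CD4+ Tconv, Ndufa1, a small membrane arm subunit, stood at -0.83 (SE 0.32), Ndufa5 at -0.35, Ndufa2, of the matrix arm, at -0.25 and Ndufb11, of the membrane arm, at -0.02. In Treg, Ndufb11 stood at 0.28, Ndufa2 at 0.15 and Ndufa1 at -0.08. The dimmest, Ndufa4l2, Ndufaf6, Ndufs7, Ndufs1 and Ndufaf1, were below background in each subset, and signals of different probe sets do not rank their transcripts.

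The effect of LME-sEVs was then compared between subsets, as a contrast of effects over all 18 arrays. In Treg minus CD4+ Tconv, 16 members and 3389 of all 22206 probe sets had an unadjusted p under 0.05 by limma. After adjustment 0 members and 0.0135% of all probe sets passed 0.05. When limma estimated the spread in each subset alone, 0 members passed (lowest adjusted p = 0.110). The median difference was 0.75, against -0.14 for all probe sets, and 41 of 46 were positive, where 39.8% of all probe sets were. Probe sets of similar signal to the members also differed between these subsets. The median log2 fold change of these neighbours was -0.37 in CD4+ Tconv and 0.05 in Treg. The contrast itself was not set against them. The largest difference of a member was 2.61 for Ndufb7 (SE 0.58, limma, adjusted p = 0.0946). The others included 2.08 for Ndufb10 (SE 0.57, adjusted p = 0.132, limma) and 1.98 for Ndufs8 (SE 0.46, adjusted p = 0.106, limma).

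Ndufa10 differed by 1.76 (SE 0.46) and Ndufa8 by 1.46 (SE 0.33). Among probe sets above background only, Ndufb7 (adjusted p = 0.0382) and Ndufa8 (adjusted p = 0.0478, limma) passed, and without Treg HCME array 3 the difference of Ndufb7 was 1.94 (adjusted p = 0.0677). In 27 members the effect was below 0 in CD4+ Tconv and above 0 in Treg, in 13 below 0 in both, in 5 above 0 in both and in 1, Ndufa6, the reverse. Across the 46 genes, which are not independent replicates, the effects in both subsets had a Pearson correlation of 0.01, and over all probe sets it was -0.20. The subsets share no arrays.

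**Figure D5:**
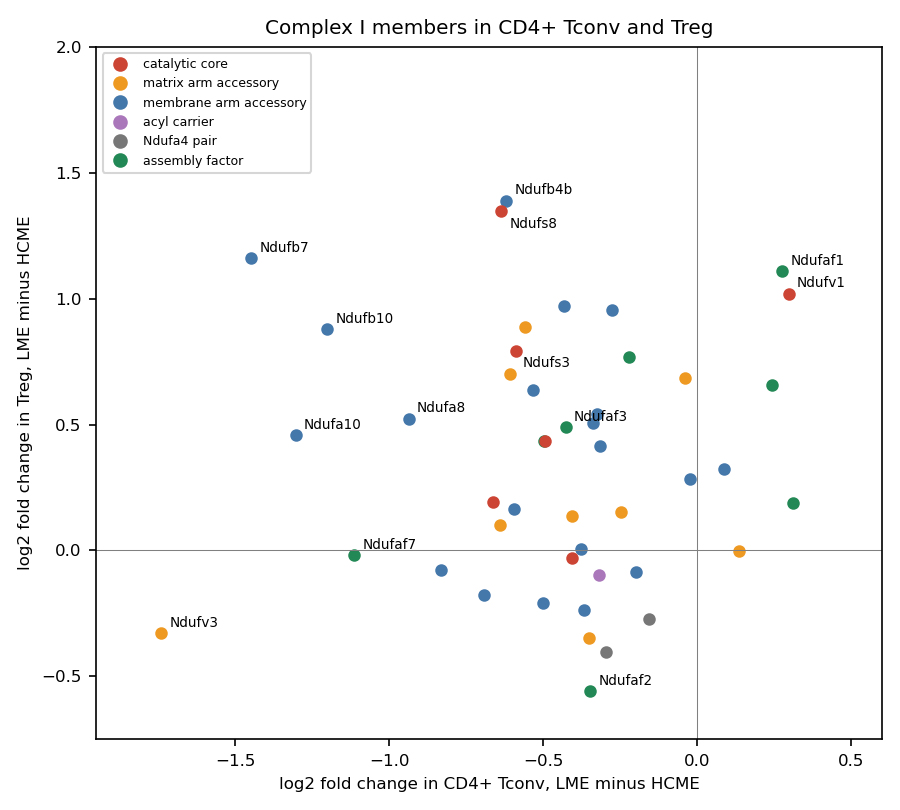
Log2 fold change (LME minus HCME) of the 46 members in CD4+ Tconv (x axis) and in Treg (y axis), coloured by role. The upper left quadrant holds 27 members, with Ndufb7, Ndufb10 and Ndufa10 at its far left, while Ndufv3 lies below 0 in both subsets (-1.74 and -0.33).

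For CD8 minus CD4+ Tconv, 5 members and 1540 of all 22206 probe sets had an unadjusted p under 0.05 by limma. After adjustment 0 members passed (lowest adjusted p = 0.605, limma), with 0% of all probe sets passing. With the spread of each subset alone 0 passed as well, Ndufb7 (1.41) being lowest at an adjusted p of 0.0862. The median difference was 0.30, against -0.08 for all probe sets, with Ndufa10 at 1.34 (SE 0.46) and Ndufa8 at 1.06 (SE 0.33). The neighbours' median log2 fold change was -0.37 in CD4+ Tconv and -0.02 in CD8+ T cells. For Treg minus CD8, 10 members and 1675 of all probe sets had an unadjusted p under 0.05 by limma. After adjustment 0 members passed (lowest adjusted p = 0.364, limma), where 0.00901% of all probe sets did. Ndufs8 differed by 1.59 (SE 0.46), Ndufb8 by 1.31 (SE 0.55) and Ndufaf3 by 1.16 (SE 0.34). The median difference was 0.41, against -0.06 for all probe sets. The neighbours' median log2 fold change was 0.05 in Treg and -0.02 in CD8+ T cells.

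In pathways next to complex I, 2 genes passed the thresholds in CD4+ Tconv, where 0.937% of all probe sets and 4.05% of the brightest 10% were called lower. Of 17 measured genes of the TCA cycle and pyruvate dehydrogenase, which feed NADH to complex I, 1 was called lower, the mitochondrial malate dehydrogenase Mdh2 (-1.29, SE 0.22, limma, adjusted p = 0.0374), and 16 were below 0 with a median of -0.47. Ogdh, of the oxoglutarate dehydrogenase, stood at -1.14 (SE 0.26) and Dlst, its partner, at -0.75. Both group means of Mdh2 and of Dlst were below background. Of 12 regulators of mitochondrial gene expression 1 was called lower, the mitochondrial transcription factor Tfb2m (-1.16, SE 0.23, adjusted p = 0.0454, limma), and Nrf1, the factor of the TGCGCA motif, stood at -1.003 (SE 0.28, adjusted p = 0.109, limma). Mdh2 was called in 6 of 15 alternative settings and Tfb2m in 3 of 16, a check chosen after these calls were seen, and the sign of neither turned.

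No gene of the other lists was called in CD4+ Tconv. The median was -0.41 for 8 genes of complex II, -0.37 for 15 of complex III, -0.27 for 21 of complex IV and -0.36 for 17 of complex V, where 17 were below 0. Examples were Sdhc of complex II (-0.61, SE 0.21), Uqcrc1 of complex III (-0.66, SE 0.18), Cox8a of complex IV (-0.82, SE 0.22) and Atp5o of complex V (-1.29, SE 0.40), with Uqcrc1 below background. Iron-sulfur cluster assembly (13 genes) had a median of -0.45, with Nfu1, a carrier of clusters, at -1.13 (SE 0.26). The assembly factors of complex I without an Nduf symbol differed in sign, as 8 of 15 were above 0 with a median of 0.06. Nubpl, which delivers clusters to complex I, stood at 0.60 (SE 0.22), Ecsit at 0.52 (SE 0.19) and Lyrm2 at -0.86 (SE 0.32), the last 2 below background. Ubiquinone synthesis genes and cytochrome c (13 measured) had a median of 0.03. Of them Coq10b, a ubiquinone-binding protein, stood at -0.71 (SE 0.24) and below background, and Coq3, a methyltransferase of the pathway, at 0.50 (SE 0.20). Against probe sets of similar signal the median difference was -0.34 for complex II, -0.29 for III, -0.09 for IV and -0.11 for V. It was -0.39 for the TCA cycle list, and -0.23 each for the regulators and for iron-sulfur cluster assembly. It was 0.13 for the assembly factors without an Nduf symbol and 0.01 for the ubiquinone list, where the 46 members had -0.15.

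No gene of these lists was called in CD8+ T cells or Treg. In CD8+ T cells the list medians ran from -0.44 for iron-sulfur cluster assembly, with Nfu1 at -0.83 (SE 0.21), to 0.15 for complex II, and Dmac2, an assembly factor of complex I, stood at -1.14 (SE 0.24, limma, adjusted p = 0.939). In Treg, complexes V (0.28, 16 of 17 above 0), IV (0.22, 15 of 21) and II (0.35, 6 of 8) were mostly above 0. Their median differences from probe sets of similar signal were 0.18, 0.20 and 0.45. The TCA cycle list stood at -0.03, with Dlat, of pyruvate dehydrogenase, at -2.69 (SE 0.73, limma, adjusted p = 0.800), the regulators at -0.40, with Ppargc1a, a coactivator of mitochondrial genes, at -1.60 (SE 0.48) with both group means below background, and the other complex I assembly factors at -0.22.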

How the data were processed

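Log2 probe set signals were used as deposited by the authors, who analysed the raw Clariom S mouse scans in the Transcriptome Analysis Console. The normalization, the genome build and whether subsets were normalized together are not given in the sources used here, so effects were tested within subsets and levels were not compared across them. Labelling kits differ between the labels and the methods. Gene symbols came from the platform annotation. In it 19572 probe sets had 1 symbol, and the other 2634 had none or more than 1 and were not searched for members.

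For each subset, a linear model of its 6 arrays (LME minus HCME) was fitted on 22206 unfiltered probe sets by lmFit and eBayes of limma 3.58.1 under R 4.3.3, with Benjamini-Hochberg adjustment over all of them. A call needed a log2 fold change beyond 1 in either direction with an adjusted p under 0.05, and contrasts of effects between subsets at an adjusted p below 0.05. Level neighbours were the 200 probe sets outside the members nearest in mean signal. Scripts were tested on simulated data. There, 84% of changes of 1.5 log2 units were called in CD4+ Tconv, 42% in CD8+ T cells and 30% in Treg. Counts of calls are therefore not comparable between the subsets. On simulated data the contrasts between subsets gave more false calls than the threshold allows, so these are read as values. Precision is limited by having 3 arrays a group. Tables were handled in Python 3.11.15 with pandas 2.3.3.

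Per-array values are given for called members, the 3 lowest p in each subset and the nuclear core, and fold changes for the 3 highest and lowest of a subset, the 5 brightest and 5 dimmest, the assembly factors, up to 5 differing between subsets, and up to 3 genes of a list. Other values, such as those per array of Ndufb4b, Ndufaf1, Ndufb7 and Ndufb10 outside CD4+ Tconv and fold changes of further accessory subunits, were chosen after they were seen. Members and lists were chosen with earlier results of these data known. The methods' t-test, other normalizations, a filter, array weights, single arrays left out and a replicate block were tried as alternatives.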

Additional observations from a re-analysis of the deposited data

Results flagged for a closer look

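In 5 members every LME array lay below every HCME array in CD4+ Tconv and above every HCME array in Treg. In CD4+ Tconv, 11.8% of all probe sets and 30.5% of the level neighbours had LME lower without overlap. In Treg, 4.72% and 9.0% had LME higher without overlap. How many of all probe sets did both was not counted. The difference between the effects did not pass the test over all probe sets. For Treg minus CD4+ Tconv this difference was 2.61 for Ndufb7 (SE 0.58, limma, adjusted p = 0.0946), 1.98 for Ndufs8 (SE 0.46, adjusted p = 0.106, limma), 1.76 for Ndufa10 (SE 0.46, adjusted p = 0.126, limma), 1.38 for Ndufs3 (SE 0.38, adjusted p = 0.132, limma) and 0.92 for Ndufaf3 (SE 0.34, adjusted p = 0.232, limma). Without Treg HCME array 3 it was 1.94 for Ndufb7, 1.70 for Ndufs8, 1.69 for Ndufa10 and 0.98 for Ndufs3. Both group means were below background for Ndufs8 in CD4+ Tconv and for Ndufaf3 in CD4+ Tconv and in Treg. Ndufaf3 also stood below in CD8+ T cells and above in Treg with no overlap, a difference of 1.16 for Treg minus CD8 (SE 0.34, adjusted p = 0.373, limma). Receptor background and T-cell marker signal moved with the treatment in CD4+ Tconv, and their part in these differences was not tested.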

How the results depend on the processing

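The 3 calls in CD4+ Tconv became 0 after quantile normalization, cyclic loess, arrays centred above background, the receptor covariate, the replicate block, limma's trend and robust options, all 18 arrays in one fit and the methods' t-test, where the lowest adjusted p of a member was between 0.0508 and 0.962. With array weights there were 4 and with a filter on dim probe sets 3. Leaving out single arrays gave 0 to 5. The median of the CD4+ Tconv members was -0.17 after quantile normalization, -0.12 after cyclic loess, -0.12 with arrays centred above background (0.36 for all probe sets) and turned to 0.27 with the receptor covariate, which separates the groups. Leaving out single arrays moved the CD8+ T cell median between -0.14 and -0.011 and its difference from level neighbours between -0.12 and 0.0125. It moved the Treg median between 0.15 and 0.46 and its difference from level neighbours between 0.11 and 0.45, both lowest without HCME array 3. In Treg minus CD4+ Tconv the count of differing members was 2 among probe sets above background and 0 to 1 with single arrays left out, with Ndufb7 the 1 without Treg HCME array 1 or 2. In CD8+ T cells and Treg the count of calls was 0 under every alternative run. The cause of these changes was not tested. Deviations from the group means were correlated between HCME and LME arrays of a subset. The correlations ran from -0.10 to 0.14 for same-numbered arrays and from -0.21 to 0.26 for the others. With 3 arrays a group, these values cannot show whether the numbers pair the samples. The replicate block left the CD4+ Tconv median at -0.41 and the CD4+ Tconv calls at 0, and changed no call in the other subsets.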
